A study of Mus musculus with 10 samples.

Results

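The variable segments of the T cell receptor alpha chain (Trav) and beta chain (Trbv) were described in naive mouse T cells. Every row of the count table whose gene symbol begins with Trav or Trbv was taken, which gave 84 of 34573 rows, 63 Trav and 21 Trbv. All 84 symbols were found in the GENCODE M21 annotation of GRCm38 (mm10), 78 as functional variable genes and 6 as pseudogenes (Trav13-3, Trav20, Trav4d-2, Trav8-2, Trav9n-1 and Trbv10). The Trav rows lie between positions 52427928 and 53876752 of chromosome 14 and belong to 20 families, and the Trbv rows lie between positions 40891229 and 41558452 of chromosome 6 and belong to 19 families. Of 163 annotated Trav and Trbv segments, 79 are not rows of the count table and are not analysed here, among them Trav11, Trbv12-1 and Trbv12-2. The rows hold 58 of 108 functional Trav genes and 20 of 22 functional Trbv genes. Values for the alpha chain below therefore describe these rows and not the whole chain.

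A T cell builds each receptor chain by joining 1 variable segment to a joining segment, with a diversity segment between them in the beta chain, and splicing the joined exon to a constant gene. The variable segment encodes the CDR1 and CDR2 loops, which mostly touch the MHC molecule, and the start of CDR3, which mostly touches the bound peptide. Cells that recognise MHC class II become CD4 cells and cells that recognise MHC class I become CD8 cells, and the transcription factor ThPOK (gene Zbtb7b) is required for the CD4 choice. The mixture of segments in a population therefore records which receptors were made and which were kept.

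RNA was sequenced from 10 libraries, 2 in each of 5 groups of naive T cells sorted from the spleen at 6 weeks of age as TCRb+CD25-CD44- cells with high Cd62l. Homozygous OB11/OB11 mice gave 3 groups, cells positive for both CD4 and CD8 (DP), cells with high CD4 (CD4hi) and cells with low CD4 (CD4lo). Wild-type (WT) mice gave CD8 cells (WT CD8) and CD4 cells (WT CD4). What the OB11 allele changes is not stated in the labels, and the series title concerns the autoregulatory loop of ThPOK. The labels name no strain, sex or number of animals and do not say that the 2 libraries of a group are separate mice, so the spread behind each p-value is that between these libraries and may be technical. The titles of the CD4lo and WT CD4 libraries carry an unexplained L, so wherever a marked group is set against an unmarked one, group and mark cannot be told apart.

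Total counts ran from 5055956 to 7417789 per library. In CPM, counts scaled to a common library size by TMM, Cd4 was at 235 and 249 in DP, 446 and 521 in CD4hi, 33.2 and 34.8 in CD4lo, 1.75 and 4.03 in WT CD8, and 612 and 671 in WT CD4. Cd8a was at 256 and 260 CPM in DP, 1.61 and 1.02 in CD4hi, 2.95 and 2.55 in CD4lo, 601 and 606 in WT CD8, and 0.71 and 3.61 in WT CD4, so both coreceptor genes followed the sort labels. The summed 7 T cell markers ran from 1804 to 2189 CPM over the 10 libraries. Some markers of other cells moved with the groups. The 6 macrophage markers summed to 131 and 145 CPM in DP and to 9.77 to 37.8 elsewhere, the 9 B cell markers to between 255 and 522 CPM, highest in WT CD8, and the 6 gamma delta T cell markers to 122 and 130 CPM in CD4lo and to 1.24 to 5.02 elsewhere. The sums of the NK cell and of the NKT and innate-like lists, which share Klrb1c, were lowest in WT CD4. This did not hold for each member, as Klrb1c, Ncr1 and Zbtb16 were lower in WT CD8 than in WT CD4. In WT CD4, Il2rb at 78.0 and 78.5 CPM and Slamf6 at 82.5 and 78.2 CPM made up most of the NKT and innate-like sum. Both Il2rb and Slamf6 were lowest in WT CD4. The 6 NK cell markers summed to 85.1 and 95.3 CPM in DP, 61.2 and 69.1 in CD4hi, 125 and 112 in CD4lo, 96.0 and 100.3 in WT CD8, and 27.4 and 28.3 in WT CD4. The 7 markers of NKT and innate-like cells summed to 288 and 285 CPM in DP, 331 and 358 in CD4hi, 339 and 358 in CD4lo, 293 and 266 in WT CD8, and 166 and 169 in WT CD4. The other members differed in pattern. The NK receptor Klra8 was at 0 in 8 of 10 libraries. Ncr1 and Zbtb16 were at 11.7 and 13.7 CPM and at 13.3 and 12.7 CPM in CD4lo and below 3 CPM in every other library. Klre1 was also highest in CD4lo. Eomes, Prf1, Cd160 and Cxcr6 were each lower in both WT CD4 libraries than in every other library. Cd160 was at 1.42 and 2.36 CPM in WT CD4 and at 11.8 to 21.6 elsewhere. Cxcr6 was at 2.13 and 4.03 CPM in WT CD4 and at 8.05 to 49.2 elsewhere. Prf1 was at 21.3 and 19.9 CPM in WT CD4 and at 33.3 to 57.5 elsewhere. The part of these markers of other cells in the results on the alpha and beta segments was not tested, except where values are set beside a result.

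The ends of the segments that the comparisons turn on are shown because they hold the part of CDR3 that the germline encodes. Each line gives the last 60 bases of the variable exon from the GENCODE M21 transcripts, 5′ to 3′ on the coding strand, with capitals from the last in-frame cysteine codon to the end of the segment.
Trbv15: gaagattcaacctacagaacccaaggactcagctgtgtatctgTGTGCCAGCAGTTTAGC
Trbv14: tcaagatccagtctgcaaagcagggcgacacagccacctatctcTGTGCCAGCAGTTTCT
Trbv16: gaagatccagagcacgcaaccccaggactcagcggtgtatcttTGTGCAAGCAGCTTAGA
Trbv29: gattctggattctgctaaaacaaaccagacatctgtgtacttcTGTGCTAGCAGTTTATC
Trbv31: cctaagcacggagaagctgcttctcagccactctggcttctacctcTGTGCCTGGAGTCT
Trav16: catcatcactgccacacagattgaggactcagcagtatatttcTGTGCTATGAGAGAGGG
Trav16n: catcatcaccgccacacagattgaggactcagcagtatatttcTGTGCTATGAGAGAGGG
Trav16d-dv11: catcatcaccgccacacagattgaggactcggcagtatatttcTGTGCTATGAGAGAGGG
Trav4-4-dv10: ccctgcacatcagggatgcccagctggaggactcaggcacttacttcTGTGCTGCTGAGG
Trav7d-2: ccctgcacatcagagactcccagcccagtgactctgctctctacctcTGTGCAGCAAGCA

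On mm10 these windows are chr6:41141599-41141658 for Trbv15, chr6:41135557-41135616 for Trbv14, chr6:41152171-41152230 for Trbv16 and chr6:41271822-41271881 for Trbv29, all on the plus strand, and chr6:41557693-41557752 on the minus strand for Trbv31. Those of the alpha chain lie on the plus strand, at chr14:53743646-53743705 for Trav16, chr14:53351562-53351621 for Trav16n, chr14:53047762-53047821 for Trav16d-dv11, chr14:53684118-53684177 for Trav4-4-dv10 and chr14:52684413-52684472 for Trav7d-2. The 3 Trav16 segments carry the same germline CDR3 start. Over their 301-base variable exons Trav16 and Trav16n differ at 4 positions, Trav16 and Trav16d-dv11 at 5, and Trav16n and Trav16d-dv11 at 3. Trbv31 is the only one of the 21 Trbv rows that lies downstream of Trbc1.

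Sequence sharing sets how far single rows can be read. Of all 50-base windows of a segment's spliced transcript, more than 50% recurred in another annotated segment for 28 of 63 Trav rows and for 0 of 21 Trbv rows, and 19 Trbv rows shared no window at all. Trav7d-2 shared 99.7% of its windows, most with Trav7-2, and Trav14d-1 shared 100%, most with Trav14n-1, and neither of these partners is a row here. Trav16 shared 48.2% and Trav16n 57.3% of their windows. Counts of single Trav rows in these clusters are therefore uncertain as to which copy was transcribed, and results for whole families are given beside them.

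Usage was defined in each library as a segment's count in percent of the counts of all 63 Trav or all 21 Trbv rows. A library held between 500 and 1223 Trav counts and between 952 and 1720 Trbv counts, 7806 and 13664 in all. A count of 0 thus allows a usage of up to 0.245% to 0.60% in Trav and up to 0.174% to 0.315% in Trbv (3 counts of the chain total), and these floors, like the 95% Wilson intervals below, cover counting error only. In total 82 of 84 segments had counts. Trav11d and the pseudogene Trbv10 had 0 in all 10 libraries. All 50-base windows of Trav11d recur in Trav11, which is the variable segment of the invariant NKT cell receptor.

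The beta chain was dominated by few segments. Trbv3 (older name Tcrb-V16) had the highest usage in every library, at 19.8% and 19.1% in DP, 23.4% and 20.5% in CD4hi, 17.8% and 19.2% in CD4lo, 14% and 15.5% in WT CD8, and 18.2% and 15.0% in WT CD4. It was followed over the mean of the 5 groups by Trbv16 at 10.7%, Trbv5 at 10.5%, Trbv15 at 9.64%, Trbv13-2 at 9.30%, Trbv13-3 at 5.72%, Trbv13-1 at 5.57% and Trbv19 at 4.83%. These 8 segments made up 74.5% of usage, and 7 of them were also among the top 8 per base of transcript. The 3 Trbv13 segments are the Tcrb-V8 family of older nomenclature, and their variable exons are 86.1% to 91.8% identical.

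**Figure D1:**
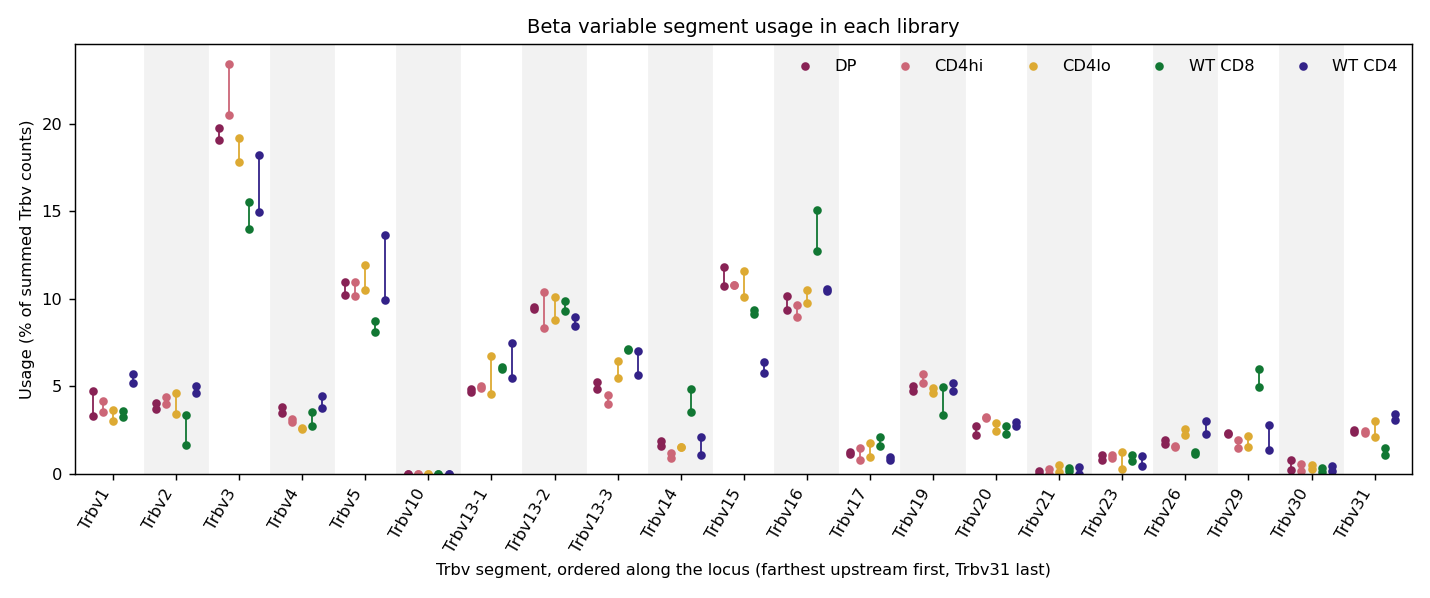
Usage of the 21 Trbv segments in percent of summed Trbv counts (vertical axis), ordered along the locus; each point is a library and each line joins the 2 libraries of a group. Trbv3 runs from 14% to 23.4%, Trbv15 is at 5.76% and 6.39% in WT CD4 and at 9.14% or more in every other library, and Trbv14, Trbv16 and Trbv29 are highest in WT CD8.

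The alpha chain was spread over more segments. Trav14d-1 led on average at 10.3%, with 11% and 11.1% in DP, 11.1% and 8.15% in CD4hi, 9.58% and 12.2% in CD4lo, 8.0% and 9.94% in WT CD8, and 11.2% and 10.7% in WT CD4. The next were Trav14-2 at 5.76%, Trav7d-2 at 5.62%, Trav4-4-dv10 at 4.61%, Trav19 at 4.33%, Trav3-3 at 4.11%, Trav5-4 at 4.01% and Trav14-1 at 3.92%, and these 8 made up 42.7% of usage. The same 8 led per base of transcript. The Trav14 family as a whole did not pass the test in any of the 7 comparisons, with a usage log2 fold change of -0.15 ± 0.12 in WT CD8 against WT CD4 (SE, n = 2 each; adjusted p = 0.423, edgeR quasi-likelihood test).

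**Figure D2:**
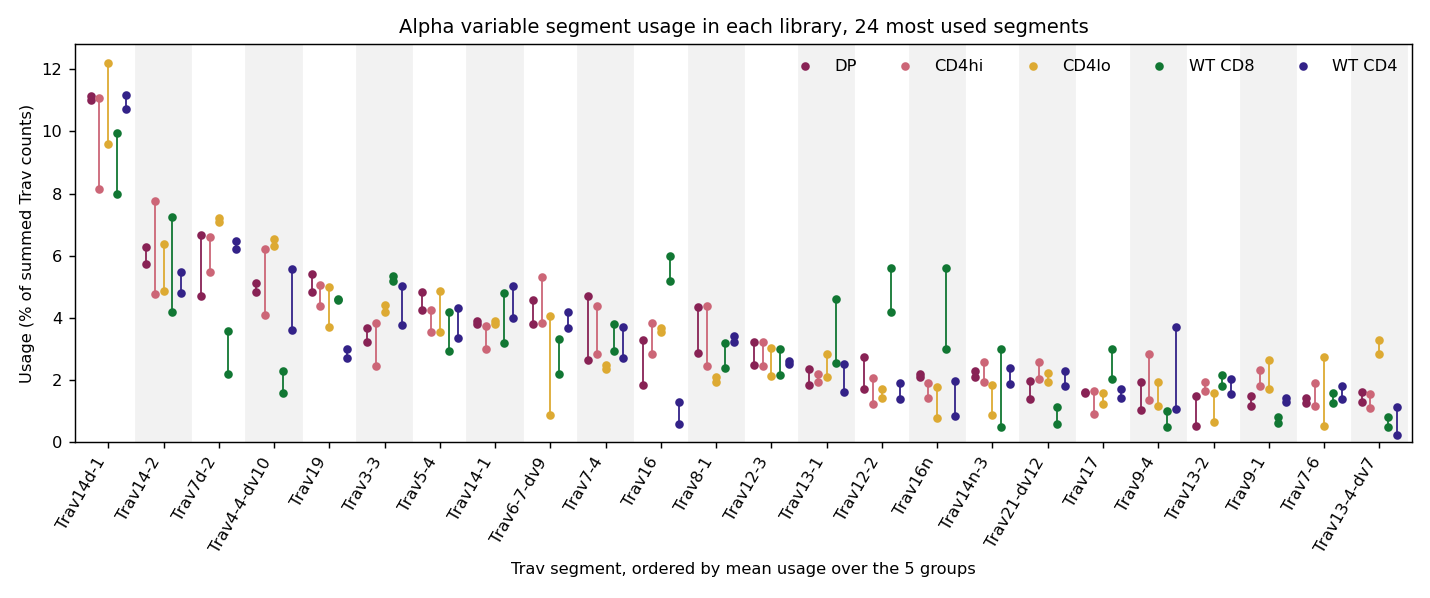
Usage of the 24 most used Trav segments in percent of summed Trav counts (vertical axis), ordered by mean usage; each point is a library and each line joins the 2 libraries of a group. Trav16 is at 0.60% and 1.31% in WT CD4 and at 5.20% and 5.99% in WT CD8, and the 2 libraries of a group often lie far apart for segments below 5%.

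Evenness lay in a similar range in all groups. The effective number of segments, the exponential of the Shannon entropy of usage, was 33.9 and 34.5 for Trav in DP, 37.1 and 33.7 in CD4hi, 33.3 and 33.3 in CD4lo, 36.4 and 34.1 in WT CD8, and 35.1 and 38.3 in WT CD4. For Trbv it was 13.5 and 13.6 in DP, 12.7 and 13.1 in CD4hi, 13.8 and 13.3 in CD4lo, 14.5 and 13.6 in WT CD8, and 14 and 14.4 in WT CD4. The 2 Trav values of CD4lo and the 2 Trbv values of CD4hi were the lowest of the 10 on their chains, and with every library thinned to the lowest chain total this held for Trbv and not for Trav. With 2 libraries against 2 an exact permutation test cannot go below p = 0.333, so no test was made of these values.

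Summed over the chain, alpha segments were most abundant in WT CD4. Trav reached 120 and 123 CPM in DP, 131 and 131 in CD4hi, 102 and 111 in CD4lo, 97.0 and 105 in WT CD8, and 148 and 170 in WT CD4, so both WT CD4 libraries lay above all others. Trbv reached 222 and 243 CPM in DP, 224 and 235 in CD4hi, 199 and 210 in CD4lo, 185 and 179 in WT CD8, and 240 and 235 in WT CD4, with WT CD8 lowest and CD4lo next. In bulk RNA, fewer cells of a type and less RNA per cell cannot be told apart.

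The constant genes are part of the same transcripts, and their own levels differed between groups. Against WT CD4, Trac, the alpha constant gene, was lower in CD4lo at a log2 fold change of -0.80 ± 0.12 (adjusted p = 0.000236, edgeR quasi-likelihood test) and in WT CD8 at -0.37 ± 0.12 (adjusted p = 0.036). The beta constant gene Trbc1 was lower in CD4hi at -0.38 ± 0.12 (adjusted p = 0.0409), in CD4lo at -0.44 ± 0.12 (adjusted p = 0.0201) and in WT CD8 at -0.59 ± 0.12 (adjusted p = 0.00237). The other beta constant gene, Trbc2, was lower in CD4hi at -0.37 ± 0.12 (adjusted p = 0.0462), and in DP none of the 3 passed. Counts per 100 constant counts therefore move with the constant gene as well as with the segments. Per 100 Trac counts, Trav counts were 51.6 and 48.3 in DP, 44.3 and 42.3 in CD4hi, 51.4 and 74.2 in CD4lo, 39.1 and 47.3 in WT CD8, and 53.1 and 51.6 in WT CD4. Per 100 counts of Trbc1 and Trbc2, Trbv counts were 79.0 and 79.6 in DP, 79.5 and 105 in CD4hi, 80.0 and 73.3 in CD4lo, 75.4 and 72.0 in WT CD8, and 69.0 and 76.1 in WT CD4. On this scale the WT CD4 libraries did not stand above the others, and the highest Trav value rests on the second CD4lo library, without which CD4lo is at 51.4. The joining segments of the alpha chain (59 Traj rows) summed to 103 and 88.1 CPM in DP, 85.4 and 77.1 in CD4hi, 110 and 98.7 in CD4lo, 112 and 116 in WT CD8, and 180 and 163 in WT CD4, again with both WT CD4 libraries highest.

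**Figure D3:**
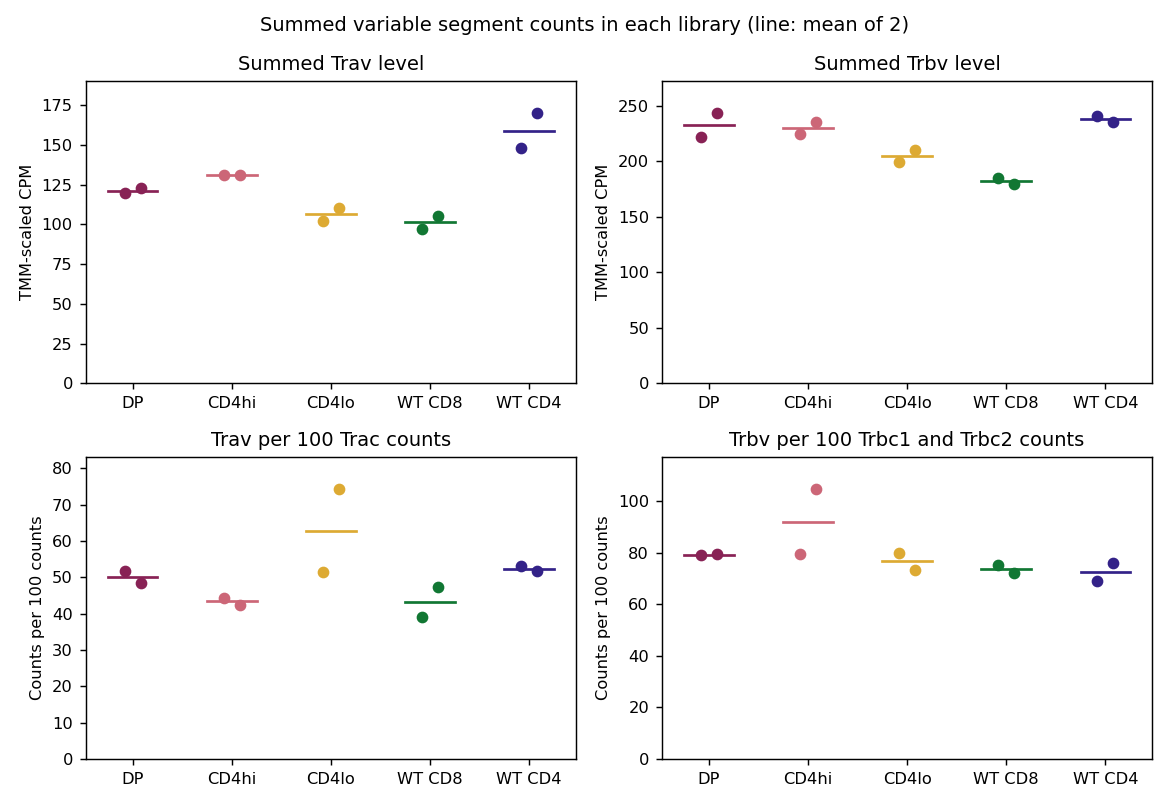
Summed Trav and Trbv levels in TMM-scaled CPM (upper panels) and per 100 counts of the constant gene or genes of the chain (lower panels); points are libraries and lines are means of 2. WT CD4 has the highest Trav level at 148 and 170 CPM, whereas per 100 Trac counts the second CD4lo library is highest at 74.2.

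Differences between groups were tested on usage. Of the 84 segments, 54 passed the filter on low counts (36 Trav and 18 Trbv, holding 90.8% and 99.5% of the chain's counts), and they were tested within the fit over all 12193 genes, with the chain total in place of the library size. Adjusted p-values are Benjamini-Hochberg values of the edgeR quasi-likelihood test over all 12193 genes, and fold changes are given ± SE with n = 2 libraries each. A segment could pass the filter through the group where it is high, so counts of called segments describe those tested and no others. In every call the 2 groups did not overlap, but with 2 libraries each this was common and adds no support. In WT CD8 against WT CD4, 21 of 36 Trav and 14 of 18 Trbv segments did not overlap. Between DP and CD4hi, where 0 were called, 9 of 36 Trav and 9 of 18 Trbv did not. The share of all genes without overlap was not computed, so these counts are not read as a result about the segments. Of the 30 calls over the 7 comparisons, 19 were not past the threshold by DESeq2. The 11 that were are Trbv15 and Trav16 wherever they were called except Trbv15 in WT CD8, Trbv14, Trbv29 and Trbv31 in WT CD8 against WT CD4, and Trav4-4-dv10 and Trbv29 in CD4lo against WT CD8. With only the 4 libraries compared in the fit, 11 of the 30 were lost.

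The wild-type lineages were compared with each other first. In WT CD8 against WT CD4, 13 of 54 segments were called (24.1%), 7 higher and 6 lower, against a background of 21.7% of all genes in the same comparison (11.2% higher and 10.6% lower), a share near the background. On the beta chain Trbv14, Trbv15, Trbv16 and Trbv29 were higher, and Trbv2, Trbv5, Trbv26 and Trbv31 were lower. On the alpha chain Trav16, Trav16n and Trav12-2 were higher, and Trav4-4-dv10 and Trav7d-2 were lower. This comparison crosses the L mark of the titles.

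Trbv29 (Tcrb-V7) had 5.99% and 4.95% usage in WT CD8, against 1.33% and 2.78% in WT CD4. The Wilson intervals were 4.65% to 7.68% and 3.91% to 6.25% in WT CD8, and 0.843% to 2.09% and 2.10% to 3.68% in WT CD4. All 3 OB11/OB11 groups lay with WT CD4, at 2.33% and 2.27% in DP, 1.44% and 1.94% in CD4hi, and 2.15% and 1.5% in CD4lo. The log2 fold change in WT CD8 against WT CD4 was 1.37 ± 0.32 (adjusted p = 0.00661). Without the first WT CD8 library it was 1.24 and no longer past the threshold (adjusted p = 0.0512).

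Trbv14 (Tcrb-V13) had the same pattern over the groups. Its usage was 4.83% and 3.53% in WT CD8 and 1.03% and 2.07% in WT CD4, beside 1.55% and 1.86% in DP, 0.878% and 1.15% in CD4hi, and 1.55% and 1.5% in CD4lo. Both WT CD8 libraries lay above all 8 others, and the log2 fold change against WT CD4 was 1.38 ± 0.35 (adjusted p = 0.0114). The call was lost without the first WT CD8 or the first WT CD4 library, with log2 fold changes of 0.99 to 1.15 (adjusted p 0.0628 to 0.106).

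Trbv16 (Tcrb-V11) and Trbv31 (Tcrb-V14) moved in opposite directions. Trbv16 was at 12.7% and 15.1% in WT CD8 and at 10.4% and 10.5% in WT CD4, a log2 fold change of 0.42 ± 0.13 (adjusted p = 0.0324). That call was lost without the second WT CD8 library or either WT CD4 library, at 0.28 to 0.42 (adjusted p 0.0983 to 0.337). Trbv31 was at 1.47% and 1.05% in WT CD8 and at 3.40% and 3.08% in WT CD4, with the OB11/OB11 libraries between them at 2.09% to 2.99%. Its log2 fold change was -1.38 ± 0.32 (adjusted p = 0.00578), and without the second WT CD8 library -1.13 (adjusted p = 0.0901).

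The other lower beta segments lost their calls when single libraries were left out. Trbv26 was at 1.26% and 1.13% in WT CD8 and 3.03% and 2.25% in WT CD4 (log2 fold change -1.14 ± 0.34, adjusted p = 0.0262), and its call ended without either WT CD8 library or the first WT CD4 library (-1.21 to -0.92, adjusted p 0.080 to 0.165). Trbv2 was at 3.36% and 1.65% in WT CD8 and 4.58% and 5.03% in WT CD4 (-1.0 ± 0.29, adjusted p = 0.0215), and its call ended without the second library of either group (-0.93 to -0.52, adjusted p 0.0659 to 0.309). Trbv5 was at 8.72% and 8.10% in WT CD8 and 9.90% and 13.7% in WT CD4 (-0.50 ± 0.16, adjusted p = 0.0379). This call ended in 5 of 10 leave-one-out fits, those without either DP library, either WT CD8 library or the second WT CD4 library (-0.55 to -0.24, adjusted p 0.0508 to 0.409).

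Among alpha segments Trav16 differed most. It was at 5.20% and 5.99% in WT CD8 and at 0.60% and 1.31% in WT CD4, with Wilson intervals of 3.57% to 7.51% and 4.53% to 7.87% in WT CD8 and of 0.257% to 1.40% and 0.807% to 2.11% in WT CD4. The log2 fold change was 2.47 ± 0.43 (adjusted p = 0.000677) and stayed past the threshold without any 1 of the 10 libraries, at 2.09 to 3.20. The Trav16 family, in which the near-identical copies are summed, gave 1.91 ± 0.30 (adjusted p = 0.000269). Trav16n on its own was at 3.0% and 5.61% in WT CD8 and 0.84% and 1.96% in WT CD4 (1.59 ± 0.51, adjusted p = 0.0389), and its call ended without either DP library, the second WT CD8 library or the first WT CD4 library (1.05 to 1.59, adjusted p 0.0524 to 0.416).

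The remaining alpha calls were of higher Trav12-2 and of lower Trav4-4-dv10 and Trav7d-2. Trav12-2 was at 5.60% and 4.20% in WT CD8 and 1.92% and 1.39% in WT CD4 (log2 fold change 1.56 ± 0.44, adjusted p = 0.019), and its call ended without either WT CD8 library or the second WT CD4 library (1.32 to 1.77, adjusted p 0.0606 to 0.138). Trav4-4-dv10 was at 1.60% and 2.29% in WT CD8 and 3.60% and 5.56% in WT CD4 (-1.21 ± 0.35, adjusted p = 0.0225), and its call ended without the same libraries (-1.53 to -0.84, adjusted p 0.0669 to 0.189). Trav7d-2 was at 2.20% and 3.57% in WT CD8 and 6.48% and 6.21% in WT CD4 (-1.08 ± 0.29, adjusted p = 0.0142), or -0.83 without the first WT CD8 library (adjusted p = 0.117). As given above, nearly all windows of Trav7d-2 recur in another segment. At the family level Trav4 was called lower (-1.06 ± 0.31, adjusted p = 0.0225), as was Trav9 (-1.34 ± 0.38, adjusted p = 0.0213), a family with no single member called. The Trav12 family (0.73 ± 0.26, adjusted p = 0.0631) and the Trav7 family (-0.49 ± 0.17, adjusted p = 0.0543) did not pass.

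Trbv15 (Tcrb-V12) was the segment in which all OB11/OB11 groups departed from WT CD4. It was at 10.7% and 11.8% in DP, 10.8% and 10.8% in CD4hi, 11.6% and 10.1% in CD4lo, 9.14% and 9.38% in WT CD8, and 5.76% and 6.39% in WT CD4. The lowest Wilson bound among the 6 OB11/OB11 libraries was 8.43%, and the highest bound of the WT CD4 libraries was 7.65%. Both WT CD4 libraries thus lay below the other 8, and both WT CD8 libraries lay between WT CD4 and the OB11/OB11 libraries. The summed NK cell markers and the summed NKT and innate-like markers given above also had both WT CD4 libraries below the other 8. Single members differed in direction. By level in WT CD8 against WT CD4, 4 of 6 tested NKT and innate-like markers were called higher and 2 lower (Klrb1c and Zbtb16). Of 5 tested NK cell markers, 2 were called higher and 2 lower (Klrb1c and Ncr1), with backgrounds of 11.1% and 10.6%. The part of these markers in the Trbv15 result was not tested.

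Against WT CD4, the Trbv15 usage log2 fold change was 0.89 ± 0.14 in DP (adjusted p = 0.000311), 0.82 ± 0.14 in CD4hi (adjusted p = 0.000808) and 0.84 ± 0.14 in CD4lo (adjusted p = 0.000708). These 3 comparisons share the WT CD4 libraries. Each call held without any 1 of the 10 libraries, over ranges of 0.81 to 0.97 in DP, 0.76 to 0.90 in CD4hi and 0.73 to 0.92 in CD4lo. In CD4lo against WT CD4, both groups carry the L mark. In WT CD8 against WT CD4 it was 0.60 ± 0.14 (adjusted p = 0.00771), a call lost without the second WT CD8 or the first WT CD4 library at 0.54 to 0.58 (adjusted p 0.0501 to 0.068). Against WT CD8, the log2 fold change was 0.28 ± 0.13 in DP (adjusted p = 0.273) and 0.23 ± 0.14 in CD4lo (adjusted p = 0.473), so neither passed.

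**Figure D4:**
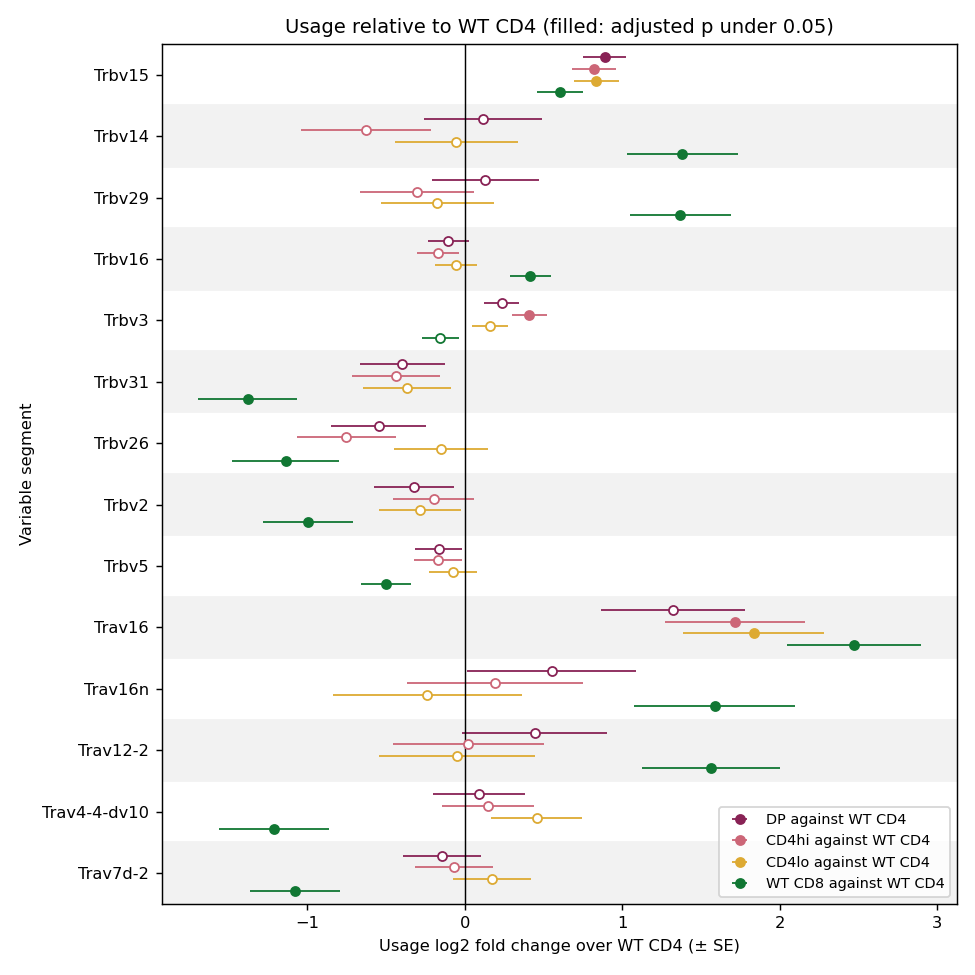
Usage log2 fold change over WT CD4 (horizontal axis, ± SE, n = 2 libraries each) of 14 segments in DP, CD4hi, CD4lo and WT CD8; filled points passed an adjusted p of 0.05. Trbv15 is filled in all 4 groups at 0.60 to 0.89, and Trbv14, Trbv29 and Trbv31 are filled in WT CD8 and open in the OB11/OB11 groups.

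Few other segments of the OB11/OB11 groups were called against WT CD4. In DP 2 of 54 were called (3.70%, background 19.1%), in CD4hi 4 (7.41%, background 16.8%) and in CD4lo 3 (5.56%, background 15.8%), a smaller share than the background in each, with no test of that difference. Trav16 was higher than in WT CD4, at 3.83% and 2.85% in CD4hi and 3.67% and 3.54% in CD4lo, against the 0.60% and 1.31% of WT CD4.

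The Trav16 log2 fold change was 1.72 ± 0.44 in CD4hi (adjusted p = 0.0156) and 1.83 ± 0.45 in CD4lo (adjusted p = 0.0113). The CD4hi call was lost without the first CD4hi or the first WT CD4 library (1.34 to 1.49, adjusted p 0.0715 to 0.0963), and the CD4lo call without the first CD4lo library (1.81, adjusted p = 0.0568). In DP, at 3.28% and 1.84%, it was 1.32 ± 0.46 and not past the threshold (adjusted p = 0.0572). With the copies summed, the Trav16 family did not pass in any OB11/OB11 group against WT CD4, at 0.61 ± 0.33 in DP (adjusted p = 0.218), 0.90 ± 0.32 in CD4hi (adjusted p = 0.0702) and 0.69 ± 0.33 in CD4lo (adjusted p = 0.182).

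The last 4 calls against WT CD4 each passed in 1 OB11/OB11 group. Trav19 and Trbv1, however, moved in the same direction in the groups where they did not pass. Trav19 had 0.73 ± 0.28 in CD4hi, 0.63 ± 0.29 in CD4lo (family fit) and 0.69 ± 0.29 in WT CD8. Trbv1 had -0.43 ± 0.21 in DP, -0.50 ± 0.22 in CD4hi and -0.66 ± 0.23 in WT CD8. These 2 calls therefore do not set their group apart from the others. Trbv3 and Trbv13-3 also moved in the same direction in DP and CD4lo, though not in WT CD8. Trbv3 had 0.23 ± 0.11 in DP and 0.16 ± 0.12 in CD4lo (family fit). Trbv13-3 had -0.33 ± 0.18 in DP, and in CD4lo a mean usage of 5.95% against 6.32% in WT CD4. Neither was called between DP and CD4hi, so their calls do not set CD4hi apart from DP. Trbv3 was higher in CD4hi, at 23.4% and 20.5% against 18.2% and 15.0% in WT CD4 (0.41 ± 0.11, adjusted p = 0.0218), a call lost without the first CD4hi or the second WT CD4 library (0.27 to 0.31, adjusted p 0.176 to 0.203). Trbv13-3 was lower in CD4hi, at 3.99% and 4.46% against 7.02% and 5.62% in WT CD4 (-0.57 ± 0.19, adjusted p = 0.0488), and kept its call in 1 of 10 leave-one-out fits, that without the second WT CD4 library (range -0.73 to -0.41, adjusted p up to 0.287). Trav19, the single member of its family here, was higher in DP, at 4.85% and 5.40% against 3.0% and 2.70% in WT CD4 (0.85 ± 0.27, adjusted p = 0.0423), and kept its call in 3 of 10 (adjusted p up to 0.217). Trbv1 was lower in CD4lo, at 3.03% and 3.64% against 5.17% and 5.68% in WT CD4 (-0.72 ± 0.23, adjusted p = 0.0446), and kept its call in 4 of 10 (adjusted p up to 0.248). Both of these calls ended without any 1 of the 4 libraries compared, at log2 fold changes of 0.77 to 0.93 for Trav19 and -0.84 to -0.58 for Trbv1.

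DP and CD4lo were also tested against WT CD8, and CD4hi was not. In DP 4 of 54 segments were called (7.41%, background 6.81%), Trav4-4-dv10 higher and Trbv14, Trbv16 and Trbv29 lower, and in CD4lo 4 (7.41%, background 5.49%), Trav4-4-dv10 and Trav7d-2 higher and Trbv14 and Trbv29 lower. Both shares are close to the background. These comparisons share the WT CD8 libraries with the comparison of the wild-type lineages.

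Trav4-4-dv10 was at 5.11% and 4.83% in DP and 6.30% and 6.55% in CD4lo, against 1.60% and 2.29% in WT CD8. The log2 fold change was 1.30 ± 0.36 in DP (adjusted p = 0.0411) and 1.67 ± 0.35 in CD4lo (adjusted p = 0.0095). Trbv29 gave -1.24 ± 0.32 in DP (adjusted p = 0.0285) and -1.54 ± 0.33 in CD4lo (adjusted p = 0.0113), and Trbv14 gave -1.27 ± 0.35 in DP (adjusted p = 0.0424) and -1.44 ± 0.36 in CD4lo (adjusted p = 0.0305). With these values all 4 OB11/OB11 libraries of the comparison lay on the side of WT CD4.

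Trbv16, at 10.2% and 9.36% in DP against 12.7% and 15.1% in WT CD8, gave -0.52 ± 0.13 (adjusted p = 0.0249), and Trav7d-2, at 7.22% and 7.08% in CD4lo against 2.20% and 3.57% in WT CD8, gave 1.25 ± 0.29 (adjusted p = 0.0194). In DP against WT CD8, where neither group carries the L mark, all 4 calls were lost by DESeq2. Those of Trbv14 and Trbv16 were also lost with the most used segment left out of the chain total, and that of Trav4-4-dv10 with TMM within each chain. The calls of Trav4-4-dv10, Trbv14 and Trbv29 were each lost without any 1 of the 4 libraries compared, with adjusted p from 0.098 to 0.293, and that of Trbv16 without either DP library or the second WT CD8 library (-0.58 to -0.38, adjusted p 0.089 to 0.352). In CD4lo the call of Trav4-4-dv10 was lost without the first WT CD8 library (1.48, adjusted p = 0.0803), that of Trbv29 without the first WT CD8 or the second CD4lo library (-1.41 to -1.33, adjusted p 0.0906 to 0.0942), that of Trav7d-2 without the first WT CD8 library or either CD4lo library (1.0 to 1.27, adjusted p 0.0643 to 0.159), and that of Trbv14 without any 1 of the 4 (-1.66 to -1.21, adjusted p 0.0681 to 0.252).

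Within the mutant, DP and CD4hi had no called segment. The count was 0 of 54 (background 1.62%) by edgeR and 0 by DESeq2, and 0 of 54 segments reached an unadjusted p of 0.05 in either. The segment closest to it was Trbv14, at 1.55% and 1.86% in DP and 0.878% and 1.15% in CD4hi, with a log2 fold change of 0.74 ± 0.41 (unadjusted p = 0.0893, adjusted p = 0.559). A difference between these groups was not detectable at this depth, which does not show that their usage is alike.

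The distance between libraries, the summed absolute differences of usage over the chain divided by 2, was smallest among the OB11/OB11 groups for Trbv. The median over the 4 library pairs was 5.84% between DP and CD4hi, 6.03% between DP and CD4lo, and 8.15% between CD4hi and CD4lo. Against WT CD4 it was 10.8% for DP, 12.9% for CD4hi and 10.8% for CD4lo, and against WT CD8 14.7% for DP, 17.2% for CD4hi and 14.2% for CD4lo. WT CD8 and WT CD4 lay 16% apart.

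The 2 libraries of a group were 4.35% apart in DP, 5.62% in CD4hi, 8.16% in CD4lo, 7.30% in WT CD8 and 9.47% in WT CD4. The medians among the OB11/OB11 groups were thus within the range of distances inside groups, and each OB11/OB11 group was farther from WT CD8 than from WT CD4. Of the 12 library pairs between OB11/OB11 and WT CD4, the closest lay 7.03% apart, less than the 9.47% between the WT CD4 libraries. For Trav the 2 libraries of a group were 12.3% to 21.0% apart, medians among the OB11/OB11 groups were 14.1% to 18.8%, those to WT CD4 16.3% to 20.0% and those to WT CD8 23.0% to 28.1%, with WT CD8 and WT CD4 at 25.9%. Libraries of lower chain total differ more by counting error alone.

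Along the beta locus 3 of the 4 segments called higher in WT CD8 were neighbours. Trbv14, Trbv15 and Trbv16 begin 403, 397 and 386 kb upstream of the start of Trbc1, and Trbv17 and Trbv13-3 flank them. The 7 segments from 360 to 417 kb (Trbv19 to Trbv13-2) held 43.2% and 43.3% of Trbv counts in DP, 39.5% and 42.9% in CD4hi, 45.1% and 42.8% in CD4lo, 49.2% and 50.9% in WT CD8, and 38.8% and 39.0% in WT CD4. The 7 farther segments held 46.2% and 46.3% in DP, 50.6% and 46.4% in CD4hi, 43.4% and 47.1% in CD4lo, 38.0% and 38.5% in WT CD8, and 49.7% and 48.5% in WT CD4. Both WT CD8 libraries were outside the range of the other 8 in each of these stretches. The nearer stretch holds Trbv14, Trbv15 and Trbv16, 2.63, 3.18 and 3.42 points higher in WT CD8 than in WT CD4. Usage is a share of the chain total, so a rise there lowers the rest. The result is therefore not separate from those calls.

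**Figure D5:**
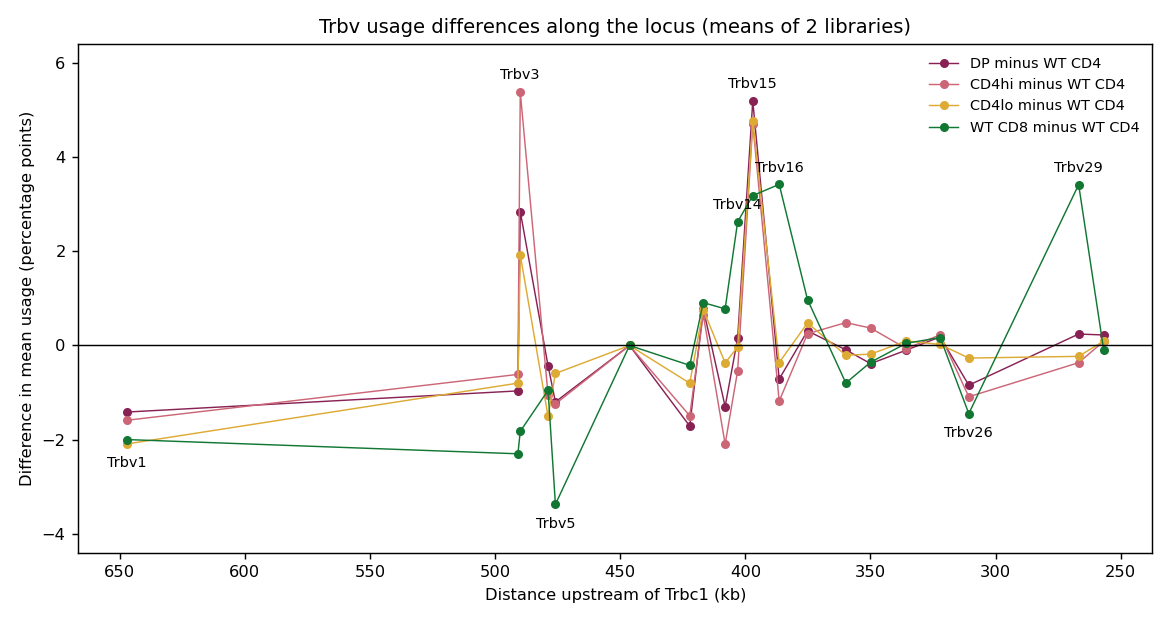
Difference in mean usage from WT CD4, in percentage points, of Trbv segments against their distance upstream of Trbc1 in kb; points are differences of means of 2 libraries, and Trbv31, downstream of Trbc1, is left out. The line of WT CD8 is above 0 from Trbv13-2 to Trbv17, at Trbv29 and, by less than 0.2 points, at Trbv21 and Trbv23, and those of DP and CD4lo are highest at Trbv15, at 5.19 and 4.76 points, and that of CD4hi is highest at Trbv3, at 5.38 points, with 4.71 at Trbv15.

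In the Trav locus, read over the 63 rows here, the differences were smaller. The 21 segments nearest to Trac held 48.2% and 45.4% of Trav counts in DP, 45.2% and 52.3% in CD4hi, 54.1% and 45.3% in CD4lo, 47.0% and 48.0% in WT CD8, and 44.3% and 43.7% in WT CD4. The WT CD4 values were the lowest, by less than the spread within CD4hi or CD4lo. The 21 farthest segments held 23.2% and 21.9% in WT CD8 and 28.0% and 30.01% in WT CD4, with the OB11/OB11 libraries from 23.7% to 28.8%.

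Segments of the alpha locus that can also join to the delta chain carry dv in their symbol, and 7 rows do. Together they held 13.9% and 12.5% of Trav counts in DP, 12.7% and 16.9% in CD4hi, 19.2% and 14.9% in CD4lo, 8.20% and 9.55% in WT CD8, and 11.5% and 14.1% in WT CD4. Trav13-4-dv7 was at 3.28% and 2.83% in CD4lo, against 0.24% and 1.14% in WT CD4 (log2 fold change 2.03 ± 0.66, adjusted p = 0.0509), and Trav15-2-dv6-2 was at 2.89% and 1.77% in CD4lo, against 0.36% and 0.981% in WT CD4 (1.73 ± 0.75, adjusted p = 0.141). Neither passed the threshold, although for both the CD4lo libraries were the highest of the 10. Of the other tested dv rows, Trav6-7-dv9 and Trav21-dv12 did not share this. Trav6-7-dv9 was at 4.07% and 0.885% in CD4lo, against 4.20% and 3.68% in WT CD4 (-0.57 ± 0.46, adjusted p = 0.439), and Trav21-dv12 was at 2.23% and 1.95% in CD4lo, against 2.28% and 1.80% in WT CD4 (0.05 ± 0.49, adjusted p = 0.96). Trav4-4-dv10 did share it, with both CD4lo libraries the highest of the 10, at the usages given above. Its log2 fold change against WT CD4 was 0.46 ± 0.29 and did not pass (adjusted p = 0.32). Trav15d-1-dv6d-1 and Trav16d-dv11, with 16 and 54 counts in all libraries together, did not pass the filter.

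CD4lo also held transcripts of the other receptor type. The gamma variable rows summed to 38.3 and 41.7 CPM in CD4lo, against 0.178 and 1.81 in WT CD4, and the delta variable rows to 27.2 and 29.8 CPM in CD4lo, against 5.69 and 3.47 in WT CD4. Of the 6 tested gamma delta T cell markers, 6 were called higher in CD4lo than in WT CD4 (background 8.82% of all genes higher in the fit of levels), among them Trdv4, a delta variable segment, at a level log2 fold change of 5.46 ± 0.69 (adjusted p = 5.38e-05) and Tcrg-C1, a gamma constant gene, at 5.04 ± 0.35 (adjusted p = 1.04e-07). With the dv segments left out of the chain totals, an alternative chosen after seeing the data, Trav13-4-dv7 passed at 2.10 ± 0.67 (adjusted p = 0.0459), which made 4 called segments in CD4lo against WT CD4 rather than 3. Which cells the dv transcripts of CD4lo came from cannot be told apart in bulk RNA.

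Several segments of known use in innate-like T cells were followed whatever they showed. Trav1, the variable segment of the MAIT cell receptor, had 34 counts in all 10 libraries together, at most 1.09% usage, and did not pass the filter. Trbv13-2, which with Trbv29 and Trbv1 is the usual beta partner of the invariant NKT alpha chain, was at 9.39% and 9.53% in DP, 8.30% and 10.4% in CD4hi, 10.1% and 8.79% in CD4lo, 9.87% and 9.30% in WT CD8, and 8.43% and 8.93% in WT CD4. Its log2 fold change against WT CD4 lay between 0.11 and 0.14 in all 4 comparisons, and none passed. Trbv13-1 did not pass, at -0.43 ± 0.21 in DP (adjusted p = 0.166), -0.37 ± 0.21 in CD4hi (adjusted p = 0.272) and -0.20 ± 0.21 in CD4lo (adjusted p = 0.565) against WT CD4.

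Measured as a level, with the library size rather than the chain total behind it, the counts shifted with the chain. In WT CD8 against WT CD4, 15 of 54 segments were called (27.8%, background 21.7%), 2 higher and 13 lower (backgrounds 11.1% and 10.6%), with median log2 fold changes of -0.81 over the 36 Trav and -0.51 over the 18 Trbv rows tested, beside -0.03 over all genes. Trav16 and Trbv29 were the 2 called higher. Against WT CD4, 1 segment was called in DP (Trbv15, background 19.1%), 4 in CD4hi (background 16.8%) and 5 in CD4lo (background 15.8%), and the Trav and Trbv medians were -0.35 and -0.16 in DP, -0.27 and -0.23 in CD4hi, and -0.64 and -0.30 in CD4lo. Trbv15 was called higher in all 3 OB11/OB11 groups on this scale too, at 0.86 in DP, 0.78 in CD4hi and 0.62 in CD4lo. Against WT CD8, 6 segments were called in DP (background 6.85%) and 5 in CD4lo (background 5.49%), and between DP and CD4hi 0 were by edgeR (background 1.62%), 0 by DESeq2 and 0 at an unadjusted p of 0.05.

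Summed by family, so that counts of close copies within a family are joined, 31 families were tested. Of these 11 were called in WT CD8 against WT CD4 (background 21.7%), 2 in DP against WT CD4 (background 19%), 2 in CD4hi against WT CD4 (background 16.6%) and 2 in CD4lo against WT CD4 (background 15.6%). Trbv15, a family of 1 segment here, was called in each of these 4. Between DP and CD4hi 0 families were called by edgeR (background 1.6%) and 0 by DESeq2, with 0 at an unadjusted p of 0.05. Against WT CD8 5 were in DP (background 6.68%) and 5 in CD4lo (background 5.48%). The Trav16 family was lower than in WT CD8 in both, by a log2 fold change of -1.30 ± 0.29 in DP (adjusted p = 0.0138) and -1.21 ± 0.30 in CD4lo (adjusted p = 0.0255).

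Genes of the machinery of segment joining were read from the fit of levels. The recombinase genes Rag1 and Rag2 did not exceed 1.21 and 0.417 CPM in any library and were not tested. Levels of the other genes therefore do not measure ongoing joining. Of 12 tested genes of V(D)J recombination, 3 were called in DP, 2 in CD4hi, 2 in CD4lo and 0 in WT CD8, all against WT CD4 (backgrounds 19.1%, 16.8%, 15.8% and 21.7%), with medians between -0.06 and 0.03. In WT CD8 2 of them were at an unadjusted p of 0.05, and 0 were called by DESeq2. Dntt, the terminal transferase that adds bases at the joins, was among those called in each OB11/OB11 group, higher in DP (log2 fold change 0.80 ± 0.19, adjusted p = 0.00918) and lower in CD4hi (-2.28 ± 0.27, adjusted p = 3.48e-05) and CD4lo (-0.82 ± 0.22, adjusted p = 0.0217). Of 4 tested CD3 and chain assembly genes, 0 were called by edgeR against WT CD4 in DP, CD4hi and CD4lo. At an unadjusted p of 0.05 there were 0 in DP, 1 in CD4hi and 0 in CD4lo, and DESeq2 called the same numbers. Cd247, the zeta chain, was lower in WT CD8 (-0.29 ± 0.07, adjusted p = 0.0115).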

How the data were processed

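RNA was sequenced from 10 libraries of sorted naive T cells, each made from 10 ng of RNA as a stranded library after removal of ribosomal cDNA, per the labels' protocols. The deposited table holds raw counts per gene symbol, made by the authors with TopHat2 and HTSeq on mm10, per the submitters' processing notes. The annotation, the strand setting, the handling of reads that fit several segments and the versions are not given in the sources used here, and each could move counts between near-identical segments. Groups were read from the sample titles, and every column matched 1 sample. Segments were matched by symbol to GENCODE M21, which gave positions, sequences and shared 50-base windows. Genes were filtered with filterByExpr, scaled by TMM and fitted for all 10 libraries by group with edgeR 4.0.16 in R 4.3.3 (quasi-likelihood F test, two-sided, Benjamini-Hochberg over 12193 genes, threshold 0.05). The usage fit replaces the offset of each segment by the log of its chain total, and the family fit sums segments by family (12170 rows tested). The fits were tested on simulated data with known changes. The simulation gave all genes the same spread and placed its changes on segments of higher counts. It therefore does not tell how reliable the calls of low-count segments are. Named are the 8 most used segments per chain, called segments with a usage of at least 0.5% and no overlap, a set of segments followed whatever they showed, and those with 0 counts. The members, lists and tests were chosen with earlier results of these data known. Alternatives were DESeq2 1.42.0, other scalings, filters and chain totals, only the libraries compared, a replicate block and leaving out each library. Promoters and recombination signals were not analysed here.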

Additional observations from a re-analysis of the deposited data

How the results depend on the processing

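In the alternatives tried, none of the 30 usage calls changed sign. By DESeq2 11 of the 30 kept the call and 19 lost it, and with only the 4 libraries compared 19 kept it and 11 lost it. With each library left out in turn, 218 of 300 refits kept a call and 82 lost it, and all 10 refits kept it for Trbv15 in DP, CD4hi and CD4lo against WT CD4 and for Trav16 in WT CD8 against WT CD4. A group then left with 1 library is assumed to vary like the others. Over these refits the called segments by usage were 4 to 13 in WT CD8 against WT CD4, 1 to 3 in CD4hi against WT CD4, 1 to 2 in DP against WT CD4, 0 to 6 in DP against WT CD8 and 0 to 7 in CD4lo against WT CD8. Over these refits the called families were 3 to 12 in WT CD8 against WT CD4, 1 to 2 in CD4hi against WT CD4, 1 to 2 in DP against WT CD4, 1 to 2 in CD4lo against WT CD4, 0 to 6 in DP against WT CD8 and 0 to 5 in CD4lo against WT CD8. Over these refits the called segments by level were 8 to 15 in WT CD8 against WT CD4, 1 to 3 in CD4hi against WT CD4, 1 to 5 in CD4lo against WT CD4, 1 to 8 in DP against WT CD8 and 0 to 10 in CD4lo against WT CD8. Over these refits the called genes overall were 1411 to 2654 in WT CD8 against WT CD4, 1193 to 1998 in CD4hi against WT CD4, 1254 to 2312 in DP against WT CD4, 1239 to 1948 in CD4lo against WT CD4, 69 to 260 in DP against CD4hi, 312 to 1021 in DP against WT CD8 and 353 to 857 in CD4lo against WT CD8. With the DESeq2 Wald test, called segments by usage were 4 rather than 13 in WT CD8 against WT CD4, 2 rather than 4 in CD4hi against WT CD4, 1 rather than 2 in DP against WT CD4, 0 rather than 4 in DP against WT CD8 and 2 rather than 4 in CD4lo against WT CD8. There, called families were 4 rather than 11 in WT CD8 against WT CD4, 1 rather than 2 in CD4hi against WT CD4, 1 rather than 2 in DP against WT CD4, 1 rather than 2 in CD4lo against WT CD4, 1 rather than 5 in DP against WT CD8 and 2 rather than 5 in CD4lo against WT CD8. There, called segments by level were 1 rather than 4 in CD4hi against WT CD4, 0 rather than 5 in CD4lo against WT CD4, 1 rather than 6 in DP against WT CD8 and 1 rather than 5 in CD4lo against WT CD8. There, called genes overall were 1751 rather than 2651 in WT CD8 against WT CD4, 1308 rather than 2048 in CD4hi against WT CD4, 1461 rather than 2332 in DP against WT CD4, 1276 rather than 1931 in CD4lo against WT CD4 and 499 rather than 835 in DP against WT CD8. With only the 4 libraries compared, called segments by usage were 7 rather than 13 in WT CD8 against WT CD4, 1 rather than 4 in CD4hi against WT CD4, 1 rather than 2 in DP against WT CD4, 7 rather than 4 in DP against WT CD8 and 7 rather than 4 in CD4lo against WT CD8. There, called families were 5 rather than 11 in WT CD8 against WT CD4, 1 rather than 2 in CD4hi against WT CD4, 1 rather than 2 in DP against WT CD4 and 1 rather than 2 in CD4lo against WT CD4. There, called segments by level were 1 rather than 4 in CD4hi against WT CD4, 2 rather than 1 in DP against WT CD4, 3 rather than 5 in CD4lo against WT CD4 and 9 rather than 5 in CD4lo against WT CD8. There, called genes overall were 1202 rather than 2048 in CD4hi against WT CD4 and 1351 rather than 835 in DP against WT CD8. With no filter on low counts, called segments by usage were 7 rather than 4 in CD4lo against WT CD8. There, called families were 1 rather than 2 in DP against WT CD4. There, called segments by level were 9 rather than 5 in CD4lo against WT CD8. There, called genes overall were 345 rather than 198 in DP against CD4hi. With TMM within each chain, with the chain total over segments past the filter, and with the chain total without segments that share over 50% of their windows, 1 rather than 2 segments were called by usage in DP against WT CD4. The labels do not say that equal replicate numbers pair the samples, and over the 10 pairs of groups the deviations of same-numbered libraries correlated at r from -0.51 to 0.12. With the number as a replicate block, called segments by usage were 1 rather than 2 in DP against WT CD4, called families were 1 rather than 2 in DP against WT CD4 and 1 rather than 2 in CD4lo against WT CD4, called segments by level were 1 rather than 4 in CD4hi against WT CD4 and 3 rather than 5 in CD4lo against WT CD8, and no other count moved by over 1.5 times. With families in place of segments the effective number for Trav was 11.7 in DP, 12 in CD4hi, 12.1 in CD4lo, 11.6 in WT CD8, 11.5 in WT CD4. With families in place of segments the effective number for Trbv was 11.1 in DP, 10.6 in CD4hi, 10.8 in CD4lo, 11 in WT CD8, 11.2 in WT CD4. Thinned to the lowest chain total, that of Trav segments was 33.4 in DP and 32.9 in CD4lo. As a share of the library without the most abundant symbol and mitochondrial genes, Trav counts were 0.0168% in DP, 0.0183% in CD4hi, 0.0147% in CD4lo, 0.0141% in WT CD8, 0.0225% in WT CD4, against 0.0119% in DP, 0.0126% in CD4hi, 0.0106% in CD4lo, 0.0103% in WT CD8, 0.0162% in WT CD4 of all counts. As a share of the library without the most abundant symbol and mitochondrial genes, Trbv counts were 0.0323% in DP, 0.0321% in CD4hi, 0.0282% in CD4lo, 0.0254% in WT CD8, 0.0335% in WT CD4, against 0.0229% in DP, 0.0222% in CD4hi, 0.0204% in CD4lo, 0.0186% in WT CD8, 0.0242% in WT CD4 of all counts. The causes of these shifts were not tested. Depth is one limit: a library has at most 1223 Trav counts, so segments of low usage rest on few reads.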
